A study of Mus musculus with 4 samples.

Results

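The liver transcriptome of mice carrying SIRT6Co/Co ;Alb-Cre was set against that of WT SIRT6 mice at 8 months of age, 1 array against 1 array. These are 2 of the 4 arrays of the series, chosen by their labels for genotype and age. The remaining 2 arrays hold the same genotypes at 2 months and are given beside them as a second pair of pools. SIRT6Co/Co ;Alb-Cre, labelled KO, combines a conditional Sirt6 allele with a Cre recombinase that the albumin promoter drives. Recombination is thus aimed at hepatocytes, and which cells of the liver lost or kept the gene was not measured here. Each array held total liver RNA combined from 3 pairs of mice, so the spread between animals cannot be seen, and no difference below has an error or a test. The sources used here do not give the sex or feeding state of the mice, or whether the WT mice carried Cre or the conditional allele.

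SIRT6 is a sirtuin, an NAD-dependent enzyme that sits on chromatin and removes acetyl and longer acyl groups from histones and other proteins. In the liver it is known for restraining genes of glycolysis and of fat synthesis and for dampening the activity of AP-1 and NF-kB transcription factors. The targeted gene itself read 4.50 (WT-labelled) and 4.46 (KO-labelled) at 8 months, and 4.55 and 4.54 at 2 months. These log2 values do not tell the genotypes apart. The position of the probe set relative to the deleted exons is not known here, so the value checks nothing and every direction rests on the labels. Albumin (Alb), the defining secreted protein of hepatocytes, read 12.56 and 12.52 at 8 months, among the brightest values of both arrays. Below, higher and lower mean in the KO-labelled relative to the WT-labelled array at 8 months, and values are log2 RMA values, on which a difference of 1 is a 2-fold difference. Where a pair of levels is given for a gene, WT stands first and KO second, at 8 months unless 2 months is named.

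Of 11963 genes above a filter on low values, 288 (2.41%) were higher by 1.5-fold or more and 231 (1.93%) were lower by as much, together 4.34%. By 2-fold or more, 93 genes (0.777%) were higher and 57 (0.476%) lower, and by 4-fold or more, 19 and 8. The middle of the distribution was narrow and centred. The median difference was 0.00, its interquartile range ran from -0.13 to 0.14, and 75.05% of genes lay within 0.25 of 0. Without any fold, 49.8% of genes were higher and 49.7% lower. The 1.5-fold counts of each gene list below stand against the shares of 2.41% and 1.93%. Genes past 1.5-fold made up 2.71% of genes in the dimmest of 3 equal bands of level, 5.09% in the middle band and 5.22% in the brightest. In 29 of the 519 genes the lower of the 2 values was under the filter's cutoff of 3.34, where RMA values flatten and the difference is compressed. All 19 of the 519 genes that have several probe sets had the same sign in each, which the averaging partly forces. In 11 of them each probe set passed 1.5-fold by itself. Some probe sets of 1 gene held identical values, as for Cwc22, so their agreement is automatic. Of all 753 genes above the filter with several probe sets, 67.6% had the same sign in each.

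**Figure D1:**
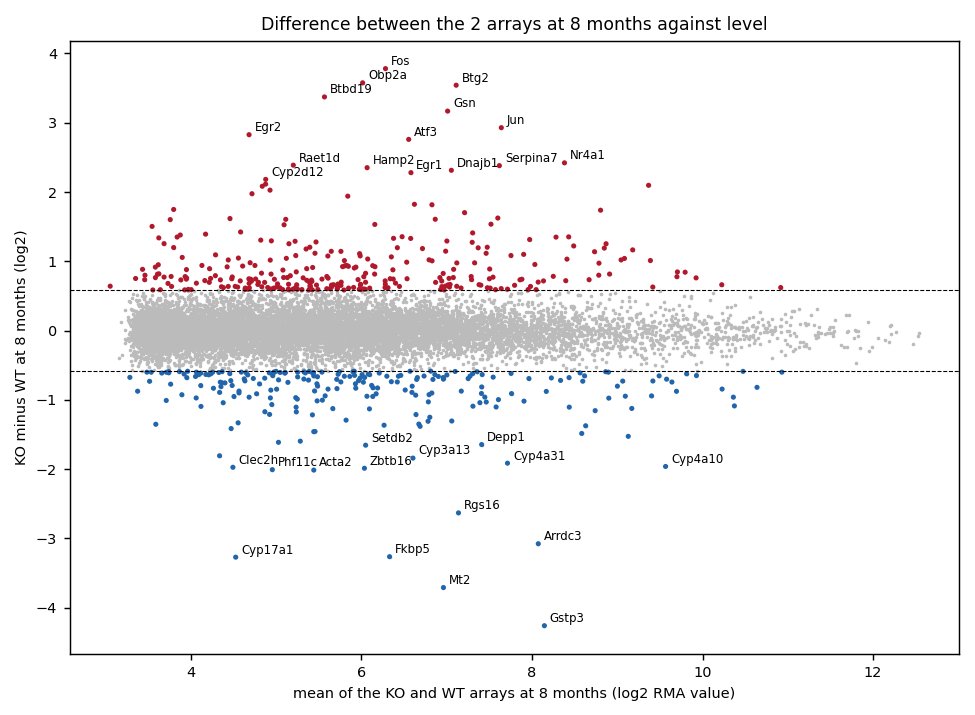
Difference between the KO-labelled and WT-labelled arrays at 8 months (vertical axis, log2) against the mean of both arrays (horizontal axis, log2 RMA value), 1 point per gene, with the 15 highest and 15 lowest genes named. Red points are the 288 genes past 1.5-fold on the higher side and blue points the 231 on the lower side; dashed lines mark 1.5-fold, and Fos at 3.78 and Gstp3 at -4.26 are the extremes.

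The upper end was led by immediate early genes, a set of transcription factors and signalling regulators whose transcription starts quickly after a growth signal or stress, before any new protein is made. Fos, a subunit of AP-1, read 4.39 in the WT-labelled and 8.17 in the KO-labelled array, 13.8-fold higher. Jun, its dimer partner, read 6.18 and 9.10, 7.62-fold higher. Atf3, a stress-induced factor of the same leucine zipper family, read 5.17 and 7.93, 6.77-fold higher. In all 3 genes the WT values at both ages lay together and far below both KO values: at 2 months Fos read 4.49 and 8.12, Jun 6.49 and 9.22, and Atf3 5.21 and 7.92.

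The antiproliferative regulator Btg2 read 5.34 and 8.88, 11.6-fold higher, with 5.48 and 8.89 at 2 months. The zinc finger factors Egr2 and Egr1 were higher as well. Egr1 read 5.44 and 7.72, 4.86-fold higher, and Egr2 read 3.27, under the filter's cutoff, and 6.10. The orphan nuclear receptors of the NR4A family followed, Nr4a1 by 2.42 at a high level (7.17 and 9.59) and Nr4a3 by 1.75 at a low one (2.92 and 4.67). Nr4a3 was closer between genotypes at 2 months, at 3.46 and 4.18.

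Across the whole list of 39 immediate early genes, 37 passed the filter, 20 were at least 1.5-fold higher and 2 lower, against 2.41% and 1.93% of all genes. Their median difference was 0.78, where that of all genes was 0.00, and 32 of the 37 lay above 0. Ier3 and Dusp2 were below the filter, with differences of 0.05 and 0.26. Other higher members were the AP-1 subunits Fosb (2.03) and Junb (1.14), the nuclear protein Ier2 (1.82), the salt-inducible kinase Sik1 (1.70), the matricellular protein Ccn1 (1.54), the ERK phosphatase Dusp6 (1.35) and the growth factor-induced factor Myc (1.12). Smaller differences were measured for Dusp1, Zfp36 and Maff, each at 0.78, where Dusp1 is a phosphatase and Zfp36 an mRNA-decay factor that shut these responses down. The 2 lower members were Gadd45b at -1.09, a growth arrest and stress gene whose relative Gadd45g was higher by 1.08, and the TGF-beta-induced factor Klf10 at -0.84. At 2 months 21 members were at least 1.5-fold higher and 2 lower, with a median of 0.72, where 3.98% and 2.39% of all genes were.

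The sequence just before the start of these genes is shown because cAMP response elements there are among the known features of immediate early promoters. The 4 members with the largest differences and a single annotated start are printed, 250 bases 5′ to 3′ on the gene's strand, from RefSeq on GRCm38.p6. They are Fos at chr12:85473640-85473889 on the plus strand, Btg2 at chr1:134079156-134079405 on the minus strand, Jun at chr4:95052223-95052472 on the minus strand and Atf3 at chr1:191183334-191183583 on the minus strand. Capitals mark TGACGT, the core of the cAMP response element, on either strand.
Fos: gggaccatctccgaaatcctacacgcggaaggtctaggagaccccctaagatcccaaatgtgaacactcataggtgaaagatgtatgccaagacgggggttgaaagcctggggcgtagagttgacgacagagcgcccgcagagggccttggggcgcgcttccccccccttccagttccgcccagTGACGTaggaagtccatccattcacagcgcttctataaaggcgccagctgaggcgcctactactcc
Btg2: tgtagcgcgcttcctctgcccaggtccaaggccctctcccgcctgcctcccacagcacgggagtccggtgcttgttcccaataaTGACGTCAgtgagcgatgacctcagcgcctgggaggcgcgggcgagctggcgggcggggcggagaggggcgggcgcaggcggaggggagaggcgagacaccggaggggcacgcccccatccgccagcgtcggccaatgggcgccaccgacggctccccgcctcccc
Jun: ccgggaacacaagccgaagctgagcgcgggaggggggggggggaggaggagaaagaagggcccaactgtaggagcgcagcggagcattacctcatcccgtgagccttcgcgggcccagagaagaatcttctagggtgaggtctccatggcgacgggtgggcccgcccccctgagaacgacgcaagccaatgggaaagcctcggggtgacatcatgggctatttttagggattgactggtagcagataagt
Atf3: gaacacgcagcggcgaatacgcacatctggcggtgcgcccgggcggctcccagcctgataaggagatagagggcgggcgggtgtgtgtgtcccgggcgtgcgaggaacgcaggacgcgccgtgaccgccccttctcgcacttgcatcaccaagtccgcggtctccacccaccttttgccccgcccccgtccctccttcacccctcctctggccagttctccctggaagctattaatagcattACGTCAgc
Fos and Atf3 hold 1 match each, Btg2 holds 2 that overlap on opposite strands, and Jun has none of these letters in its window. TGACGT occurred in 12 of 39 windows (30.8%) of the 29 immediate early genes found in the RefSeq table, in 6.47% of all 32851 windows, and in 9.45% of the windows of genes above the filter. It was in 11.3% of the windows of genes past 1.5-fold on the higher side and in 4.42% of those on the lower side. The CArG box, the site named for serum response factor, was found in 5 of the 39 windows (12.8%) and in 1.47% of all windows. None of the 4 windows printed above holds it. The box was in 1.19% of the windows of genes above the filter, in 3.55% of those of higher genes and in 0 of 226 windows of lower genes. The higher genes include members of the immediate early list, so their shares are not separate from those of the list. Genes with several starts contribute overlapping windows, and a match is a string of letters, not a bound site. AP-1 sites, and sequence outside the 250 bases, were not searched. Ier2 has no entry in the table.

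**Figure D2:**
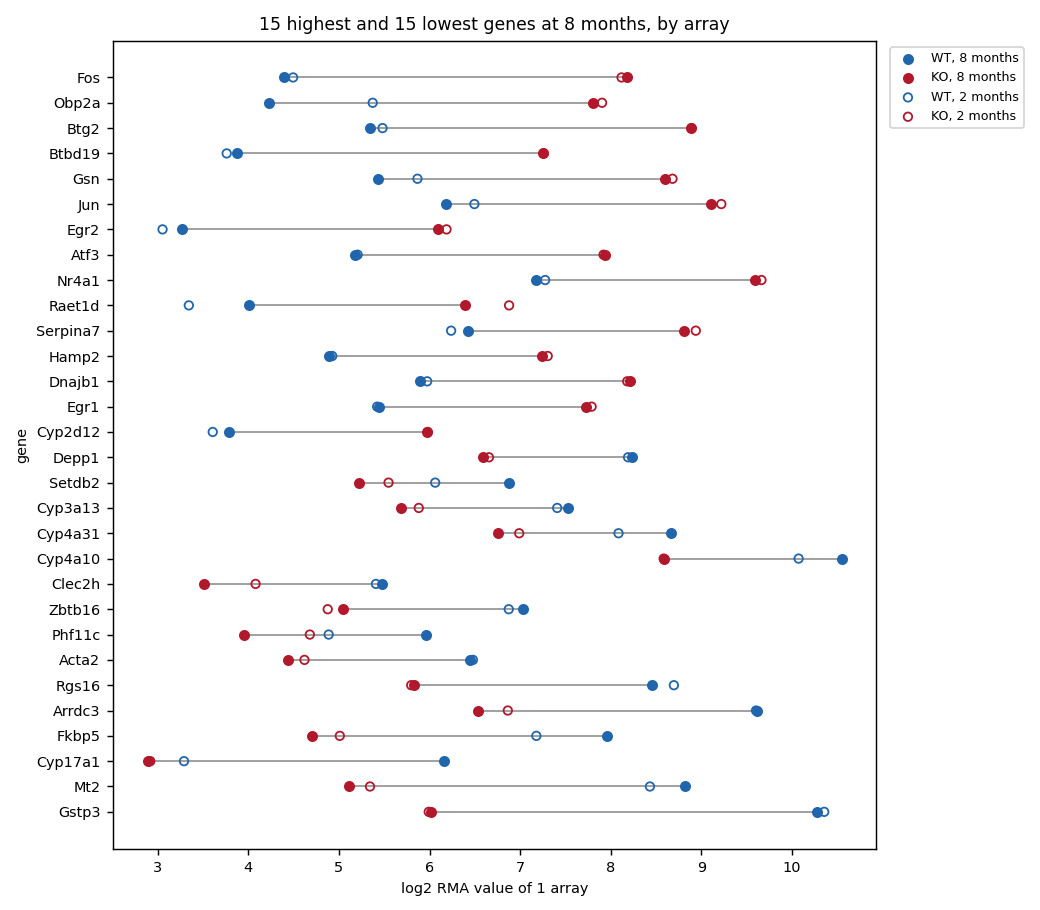
log2 RMA value (horizontal axis) in each of the 4 arrays for the 15 highest and the 15 lowest genes at 8 months (vertical axis); filled points joined by a line are the 8 months arrays, open points the 2 months arrays, blue WT and red KO, 1 pooled array each. Open and filled points of 1 genotype lie close together for Fos, Btg2 and Gstp3, while the WT values of Cyp17a1 are 3.29 at 2 months and 6.16 at 8 months.

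The other genes among the 15 highest are not known as members of 1 pathway. Obp2a, an odorant-binding lipocalin, read 4.23 and 7.80, 11.9-fold higher. Btbd19 read 3.88 and 7.25, and its neighbour on the chromosome, the stress-responsive polo-like kinase Plk3, was higher by 1.31. Gelsolin (Gsn), which severs actin filaments, read 5.43 and 8.59, 8.99-fold higher. Secreted liver proteins were among them: Serpina7, the carrier of thyroxine in plasma, read 6.43 and 8.81, and Hamp2, a hepcidin paralog, read 4.89 and 7.24. Hamp, the hepcidin that controls iron export, read 10.85 and 10.84 in the same arrays; the probes of such close paralogs can cross-hybridise. The heat shock co-chaperone Dnajb1 was higher by 2.31, the NKG2D ligand Raet1d by 2.39 and the cytochrome P450 Cyp2d12 by 2.18.

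Gstp3, a pi-class glutathione transferase, had the largest difference in either direction. It read 10.27 in the WT-labelled and 6.02 in the KO-labelled array, 19.1-fold lower, with 10.35 and 5.99 at 2 months. The rest of the phase II and antioxidant list did not follow it. Of its 26 members above the filter 2 were lower, Gstp3 and the theta-class Gstt2 (-0.91), and 2 were higher, the mu-class transferase Gstm3 (8.24 and 9.49, 2.38-fold higher) and the sulfotransferase Sult5a1 (0.71). The median of the list was 0.18.

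Several of the lowest genes are ones that glucocorticoids are known to induce. Fkbp5, the immunophilin that damps the glucocorticoid receptor, read 7.96 and 4.70, 9.60-fold lower, with 7.18 and 5.01 at 2 months. Zbtb16, a zinc finger repressor, read 7.03 and 5.04, 3.96-fold lower. The metallothionein Mt2 read 8.82 and 5.11, 13.1-fold lower. The list as a whole was divided: of 22 members above the filter 7 were lower and 3 higher, with a median of -0.18. Among all genes 1.93% were lower and 2.41% higher by 1.5-fold. The other lower members were the lipoprotein lipase inhibitor Angptl4 (-1.38), Gadd45b (-1.09), Arrdc2 (-0.89) and the triglyceride lipase Pnpla2 (-0.65). Higher members were the iron-siderophore carrier Lcn2 (1.08), Dusp1 (0.78) and Igfbp1 (0.63), an insulin-repressed binding protein of IGF. The classical targets Tat, Sgk1, Per1 and Tsc22d3 differed by less than 1.5-fold, at 0.06, 0.37, 0.35 and -0.31.

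Metallothioneins bind zinc and copper, and metals and glucocorticoids are known to induce both liver forms. Mt1, the gene beside Mt2, did not share its difference: it read 8.52 and 8.40 at 8 months and 8.45 and 8.38 at 2 months. The windows before both starts are printed to show the metal response element core that they share, from RefSeq on GRCm38.p6, both on the plus strand, Mt2 at chr8:94172368-94172617 and Mt1 at chr8:94178839-94179088. Capitals mark TGCGCNC or TGCACNC on either strand.
Mt2: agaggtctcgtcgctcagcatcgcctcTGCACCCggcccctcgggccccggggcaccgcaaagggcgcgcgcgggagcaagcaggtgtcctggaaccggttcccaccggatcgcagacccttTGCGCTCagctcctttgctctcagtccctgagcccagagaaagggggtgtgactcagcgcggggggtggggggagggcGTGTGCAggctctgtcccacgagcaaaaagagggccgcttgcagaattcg
Mt1: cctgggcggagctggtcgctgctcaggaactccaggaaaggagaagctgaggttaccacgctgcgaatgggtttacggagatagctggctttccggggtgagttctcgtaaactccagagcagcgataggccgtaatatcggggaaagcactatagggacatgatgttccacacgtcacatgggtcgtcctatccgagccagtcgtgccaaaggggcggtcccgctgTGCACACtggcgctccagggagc
The Mt2 window holds 3 matches and the Mt1 window 1. Sequence outside the 250 bases before each annotated start was not searched, so these are not full counts for either gene. A relation of the counts to the differences was not tested. This short core is common, and 21.4% of all windows and 29.4% of those of genes above the filter hold it. Among zinc carriers, the importer Slc39a4 read 6.95 and 5.58, 2.58-fold lower, and the importer Slc39a10 was higher by 0.64. The other 8 of the 11 listed genes of this group differed by less than 1.5-fold, and the zinc exporter Slc30a1 was among them at 0.19.

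Arrdc3, an arrestin-domain protein of receptor trafficking and energy balance, read 9.61 and 6.54, 8.43-fold lower, and 9.60 and 6.86 at 2 months. Its relative Txnip, a glucose-induced protein that limits glucose uptake and binds thioredoxin, read 9.32 and 7.94, and Arrdc2 stood at -0.89 at 8 months and -0.99 at 2 months. Arrdc4 stood at -0.12, so 3 of the 5 members above the filter were lower and the median was -0.89. Rgs16, a GTPase activator for G proteins whose liver level cycles with feeding, read 8.45 and 5.82, 6.19-fold lower. Acta2, the smooth muscle actin of activated stellate cells and vessel walls, read 6.45 and 4.43. Depp1, a FoxO-induced gene, read 8.23 and 6.59.

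Cyp17a1, the 17-alpha-hydroxylase of steroid synthesis, was also among the lowest genes. At 8 months it read 6.16 and 2.89, a difference of -3.27, and at 2 months it read 3.29 and 2.92. The array of WT mice at 8 months was thus the only one of the 4 over the filter's cutoff of 3.34, and the gene passed the filter through that array. The KO value is one of a dim probe set, so the size of the difference is uncertain. Of 13 genes of steroid metabolism above the filter 3 were lower and none of the others passed 1.5-fold. Besides Cyp17a1 the lower ones were Hsd17b11 and Hsd17b6 at -0.60 each. Both miss 1.5-fold under another scaling of the arrays, as do the genes said below to lie at its edge.

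Genes of fat synthesis tended to be higher. Fasn, the fatty acid synthase, read 8.60 and 9.76, 2.24-fold higher, and 8.76 and 9.81 at 2 months. Acaca, which makes its malonyl-CoA substrate, read 7.16 and 7.93. Thrsp, an activator of lipogenesis, read 8.30 and 9.27. With the elongase Elovl6 (0.72) and the liver pyruvate kinase Pklr (0.73), 5 of 21 members were at least 1.5-fold higher. The median was 0.24 and 15 members lay above 0, where 2.41% of all genes were at least 1.5-fold higher and 49.8% lay above 0. The regulator Srebf1 (0.51), the citrate lyase Acly (0.52) and the desaturase Scd1 (0.23) were short of 1.5-fold. Acacb, the acetyl-CoA carboxylase at mitochondria whose product blocks fatty acid import there, was lower, at 6.52 and 5.72, as was the polyunsaturated elongase Elovl2 at -0.62, at the edge of 1.5-fold.

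In cholesterol synthesis and uptake 3 of 21 genes were at least 1.5-fold higher and none lower, and 17 lay above 0 (49.8% of all genes did), with a median of 0.23. The higher genes were the phosphomevalonate kinase Pmvk (5.56 and 6.59), the squalene epoxidase Sqle (6.32 and 7.33) and the mevalonate decarboxylase Mvd (4.97 and 5.88). At 2 months 6 of the list were at least 1.5-fold higher, against 3.98% of all genes, and Mvd, at 0.39, was not among them.

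Targets of PPAR alpha, the receptor that turns on fatty acid oxidation in fasting, lay mostly on the lower side. Of 23 genes 7 were at least 1.5-fold lower, 1 was higher and 17 lay below 0, with a median of -0.45 at 8 months and -0.42 at 2 months. Over all genes 1.93% were lower by as much, 2.41% higher, and 49.7% lay below 0. The fatty acid omega-hydroxylases were the extremes: Cyp4a10 read 10.55 and 8.59, 3.89-fold lower, Cyp4a31 8.67 and 6.76, and Cyp4a14 11.05 and 10.23. These 3 genes are close paralogs in 1 cluster, so their probes may share signal. Angptl4 (-1.38), the acyl-CoA thioesterases Acot1 (7.43 and 6.18) and Acot2 (-0.70), and the lipid droplet protein of oxidative tissue Plin5 (6.61 and 5.66) completed the lower group. Ppara itself read 8.74 and 8.17 (-0.57), just short of 1.5-fold, and the carnitine acyltransferase Cpt1a stood at -0.47. The exception was the pantetheinase Vnn1, which read 7.35 and 8.45, 2.14-fold higher.

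**Figure D3:**
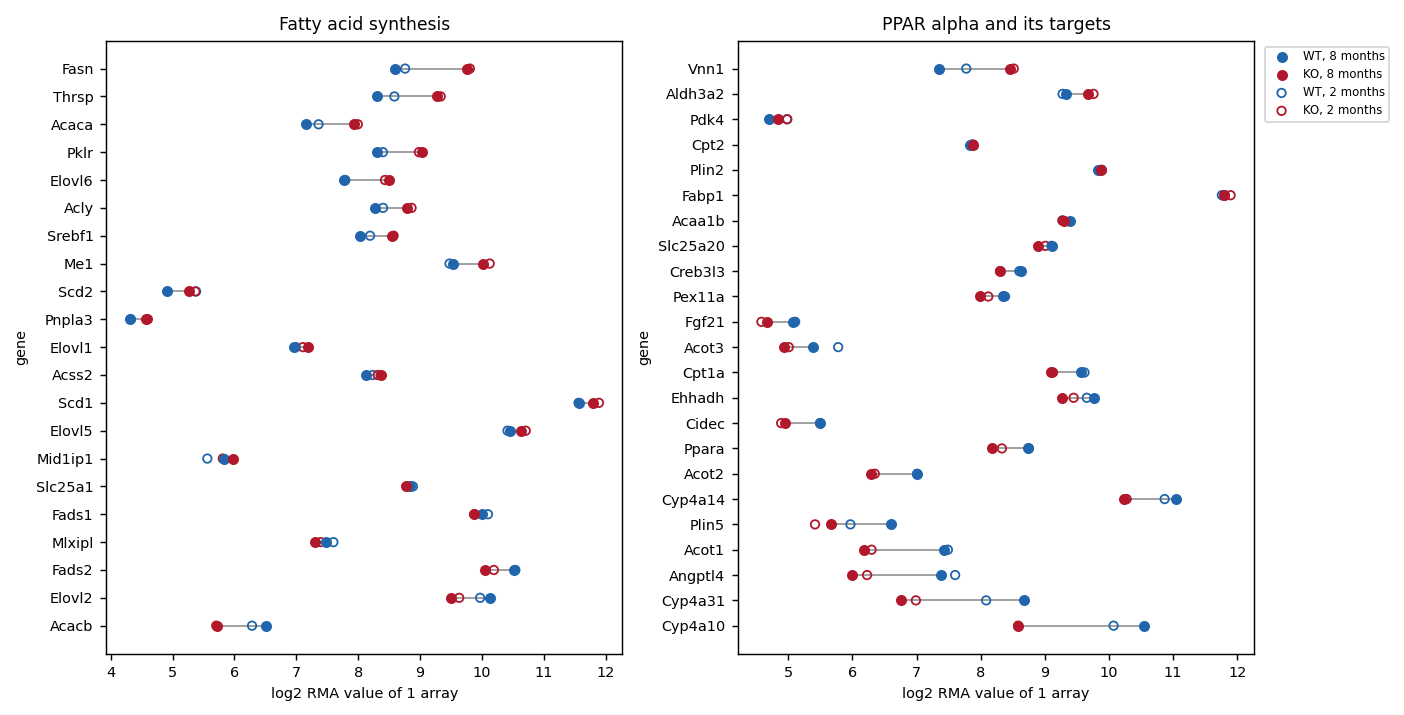
log2 RMA value (horizontal axis) in each of the 4 arrays for the genes of fatty acid synthesis (left) and for PPAR alpha and its targets (right) that passed the filter, ordered by the 8 months difference; filled points joined by a line are 8 months, open points 2 months, blue WT and red KO, 1 pooled array each. Red lies to the right of blue for Fasn, Thrsp, Acaca, Pklr and Elovl6, and to the left for Cyp4a10, Cyp4a31, Angptl4 and Acot1.

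Genes of fat uptake and storage split both ways, 5 higher and 6 lower of 31, with a median of -0.06. On the higher side, the fatty acid translocase Cd36 read 5.39 and 6.92, 2.89-fold higher, followed by the monoacylglycerol acyltransferase Mogat1 (3.13 and 4.04), the lipid droplet protein Hsd17b13 (9.28 and 10.13), the fat storage protein Fitm1 (0.70) and the adipogenic receptor Pparg (5.79 and 6.40). On the lower side were G0s2, an inhibitor of triglyceride lipase (8.13 and 7.03), the lipase Pnpla2 that it inhibits (6.78 and 6.14), the droplet proteins Plin5 and Plin4 (-0.69), and the fatty acid-binding proteins Fabp2 (7.61 and 6.73) and Fabp5 (-0.60, at the edge of 1.5-fold). The list thus held both a lipase and its inhibitor on the lower side.

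Glycolysis, a pathway SIRT6 is known to restrain, gave 1 higher and 2 lower genes of 19 with a median of -0.02. The higher gene was Pklr, read at 8.30 and 9.04. The brain-type aldolase Aldoc was lower (6.54 and 5.59), and the enolase Eno3 stood at -0.59, at the edge of 1.5-fold. Lactate dehydrogenase Ldha (-0.02) and the glucose transporter Slc2a2 (0.13) differed little, and the transporter Slc2a1 stood at -0.32. In gluconeogenesis 12 of 17 genes lay below 0, with a median of -0.33. Glucose-6-phosphatase G6pc, the last step of glucose release, was the only member at least 1.5-fold higher, at 10.6 and 11.2, while its partner transporter Slc37a4 was lower at -0.65. The aminotransferases Got1 (10.01 and 9.27) and Gpt2 (-0.61, at the edge of 1.5-fold) were lower, and the carboxykinase Pck1 stood at -0.30.

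In the insulin and IGF axis 3 of 23 genes were higher and 4 lower, and the median was -0.01. Among all genes 2.41% were higher and 1.93% lower. Igfbp2, a leptin-induced binding protein of IGF, read 9.89 and 8.37, 2.88-fold lower. The suppressor of growth hormone signalling Socs2 was lower at -0.74, the pseudokinase Trib3 at -0.64 and the acid-labile subunit Igfals at -0.59, the last at the edge of 1.5-fold. The insulin receptor substrate Irs2 read 5.63 and 6.46, the pseudokinase Trib1 6.63 and 7.61, and Igfbp1 9.10 and 9.73. Igf1 itself (-0.01) and the receptors Insr (-0.13) and Ghr (0.08) differed by less than 1.5-fold.

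Heat shock genes leaned to the higher side, with 16 of 19 above 0, 4 at least 1.5-fold higher, none lower and a median of 0.37, against 49.8% of all genes above 0 and 2.41% at least 1.5-fold higher. Dnajb1 read 5.90 and 8.21, 4.97-fold higher. The inducible chaperone Hspa1a (5.34 and 6.27), the small heat shock protein Hspb1 (5.32 and 6.24) and Dnajb4 (8.03 and 8.76) followed. At 2 months 7 members were at least 1.5-fold higher, against 3.98% of all genes, and the median was 0.46. Endoplasmic reticulum stress genes gave 3 higher and none lower of 22, and 18 lay above 0, with a median of 0.18. These were the co-chaperone Dnajb9 (7.51 and 8.25), the ubiquitin ligase Syvn1 (7.17 and 7.79) and the disulphide isomerase Pdia4, whose probe sets disagreed at 0.20 and 1.07.

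Targets of ATF4, the factor of the amino acid response, gave 2 higher and 3 lower of 23, where 2.41% and 1.93% of all genes were. Asparagine synthetase (Asns) read 6.18 and 4.73 at 8 months, 2.74-fold lower, but 4.52 and 4.59 at 2 months, so the array of WT mice at 8 months was the high one. The death-linked factor Ddit3 was higher (4.53 and 5.35), as was the stress gene Nupr1 (4.39 and 5.13, with 4.91 and 4.63 at 2 months). In the p53 list 3 of 16 were higher, Btg2, Plk3 (7.31 and 8.63) and Trp53inp1 (9.37 and 10.22), and the sestrins Sesn1 (-0.71) and Sesn2 (-0.64) were lower. Of proliferation genes 16 of 27 measured passed the filter, of which the cyclin Ccnd1 was higher (0.59) and thymidine kinase Tk1 lower (-1.01).

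Among cytochromes P450 of drug metabolism, Cyp2b9 read 7.93 and 9.67, 3.34-fold higher, and its neighbour and close paralog Cyp2b13 3.73 and 5.70, while Cyp3a13 read 7.52 and 5.68, 3.58-fold lower. The other 17 of 20 differed by less than 1.5-fold, with Cyp3a11 at 0.06 and Cyp1a2 at -0.12. Cyp2b9, Cyp2b13 and Cd36 are known as female-biased in mouse liver, and so are Cyp17a1, the flavin monooxygenase Fmo2 (-1.29) and Cyp4a14, which were lower. The female-biased list therefore had 3 higher and 3 lower of 11, and the male-biased list 2 higher and 2 lower of 23. Among all genes 2.41% were higher and 1.93% lower. The largest difference of the male-biased list was Serpina12, vaspin (6.79 and 8.41). Y-linked Eif2s3y read 7.27 and 7.34 at 8 months and 7.04 and 7.43 at 2 months, and the Y-linked demethylase Kdm5d 5.53 and 5.56 at 8 months. Xist, the marker of the inactive X, was below the filter at 3.08 and 2.29, with 4.42 and 2.66 at 2 months.

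Bile acid genes gave 3 lower and none higher of 23, against 1.93% lower and 2.41% higher of all genes. The sterol 12-alpha-hydroxylase Cyp8b1 read 9.73 and 8.61, 2.18-fold lower, the transporter Slco1a4 8.21 and 7.31, and the conjugating enzyme Baat 9.40 and 8.60. Cyp7a1, the rate-limiting enzyme of the pathway, stood at -0.31 at 8 months and 0.47 at 2 months. Among transcription factors of the hepatocyte, the xenobiotic receptor Nr1i3 read 9.57 and 8.62, and Onecut1 5.82 and 6.88. In the urea cycle and amino acid breakdown 2 of 24 were lower, the argininosuccinate lyase Asl (10.13 and 9.26) and the proline dehydrogenase Prodh (8.77 and 8.10).

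The core clock gave no higher and 2 lower genes of 13. Ciart, a repressor of the clock, read 6.08 and 4.49, 3.02-fold lower, and Per3 5.67 and 4.98. The other arms of the loop differed less: Arntl, which encodes BMAL1, by 0.28, Clock by 0.19, Per2 by 0.06 and Nr1d1 by -0.34. Of 13 clock output genes 4 were higher and 3 lower, where 2.41% and 1.93% of all genes were. The higher ones were nocturnin (Noct) (6.28 and 7.30), the repressor Nfil3 (6.04 and 7.02), the coenzyme Q protein Coq10b (0.59) and the vasopressin receptor Avpr1a (0.59). The lower ones were Rgs16, the deubiquitinase Usp2 (6.66 and 5.53) and Wee1, a kinase that holds back entry into mitosis, (6.31 and 5.55). The time of day of collection was not given in the sources used here.

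Acute phase genes, which the liver secretes on inflammation, split into members at least 1.5-fold higher (7 of 26), lower (2) and close to 0, with a median of 0.03. Among all genes 2.41% were higher and 1.93% lower by as much. Serum amyloid P (Apcs) read 8.16 and 9.30, Lcn2 5.45 and 6.52, the metalloreductase Steap4 8.56 and 9.60, and the orosomucoids Orm2 5.46 and 6.37 and Orm3 5.41 and 6.11. The receptor subunit for interleukin 6, Il6ra, was lower at 7.71 and 6.41, 2.47-fold, and the protease inhibitor Serpina3n stood at -0.59, at the edge of 1.5-fold. Other members were within 1.5-fold, with Saa1 at -0.32, haptoglobin (Hp) at -0.09 and Crp at 0.06, while Saa2 was higher by 0.67. Saa1 read only 3.83 and 3.52, near the filter's cutoff where differences are compressed, and stood at 0.20 at 2 months. Of 22 NF-kB and cytokine genes 1, Il1b, was at least 1.5-fold higher (4.03 and 5.08), and the list's median was 0.11. Interferon-stimulated genes gave 2 higher of 16, Ifi27 (6.66 and 7.94) and Rsad2 (0.68), and none lower.

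The arrays measured whole liver, so fewer cells of a type and less RNA per cell cannot be told apart. For hepatocyte secreted proteins none of 20 passed 1.5-fold, and differences ran from -0.30 to 0.15. Macrophage markers lay above 0 in 20 of 22 members, against 49.8% of all genes, with a median of 0.28 and 1 member, Cd5l, at least 1.5-fold higher. The 2 members below 0 were the lysozyme genes Lyz2 at -0.42 and Lyz1 at -0.24. The mean level of the list was 5.11 in the WT-labelled and 5.36 in the KO-labelled array at 8 months, and 5.37 and 5.51 at 2 months. The array of WT mice at 8 months thus had the lowest of the 4. The complement gene C1qa was also lowest there, at 5.42 and 5.86 against 6.18 and 6.07 at 2 months, while the Kupffer cell lectin Clec4f read 5.82 and 5.88. The shift lies beside that of Il1b and Lcn2 above, and its part in those results was not tested.

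Stellate and fibroblast markers had a median of -0.14 over 26 members, and their mean level was 5.53 and 5.39 at 8 months and 5.68 and 5.43 at 2 months, highest in the array of WT mice at 2 months. At 2 months 7 members were at least 1.5-fold lower, against 2.39% of all genes. Among them were vimentin (Vim) at -1.23, collagen Col1a2 at -0.99 and the protease inhibitor Timp2 at -0.80. At 8 months Acta2 was the only member lower by as much: Vim stood at -0.52, Col1a2 at -0.45, collagen Col1a1 stood at -0.30, desmin (Des) at -0.10 and Tagln, another smooth muscle gene, at -0.33. Ccn2, a growth factor-induced matricellular gene, was higher by 0.74. None of 23 endothelial markers passed 1.5-fold. Of 9 cholangiocyte markers above the filter Onecut1, also given above as a hepatocyte factor, and the annexin Anxa5 (5.93 and 6.81) were higher. The keratin Krt23 stood at -0.59, at the edge of 1.5-fold. Of these markers 5 lay above 0 and 4 below, with Krt7 at 0.20, Krt19 and Sox4 at -0.12 each, and Sox9 at -0.20. Only 3 of 23 measured lymphocyte and neutrophil markers passed the filter. The erythroid genes Alas2 and Car1 were higher by 0.66 and 0.74 among 5 members above it. The list went both ways, with Slc4a1 at 0.28, Ermap at -0.15 and Klf1 at -0.38. Pericentral genes, with a median of -0.16, and periportal genes, with -0.17, lay on the same side of 0.

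Lists for basic cell functions differed little. Of 37 oxidative phosphorylation genes 1, Ndufb3, was at least 1.5-fold higher (0.64), and the median was -0.02. Ribosomal protein genes were within 1.5-fold in 23 of 23 members, with a small common offset: 22 lay below 0, against 49.7% of all genes, and the median was -0.16. Among sirtuins and genes of NAD metabolism, Nnmt, which methylates nicotinamide, was higher (5.80 and 7.15) and the kynurenine pathway enzyme Afmid lower (7.93 and 6.97). Sirt1 stood at -0.12 and Nampt at -0.19. Of the 25 genes above the filter on the list of key genes, 9 were higher and 2 lower, Cyp17a1 and Txnip, with a median of -0.01. Over all 45 lists 942 genes were named, of which 760 passed the filter, 90 were below it and 92 had no probe set with a single symbol under the name listed.

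**Figure D4:**
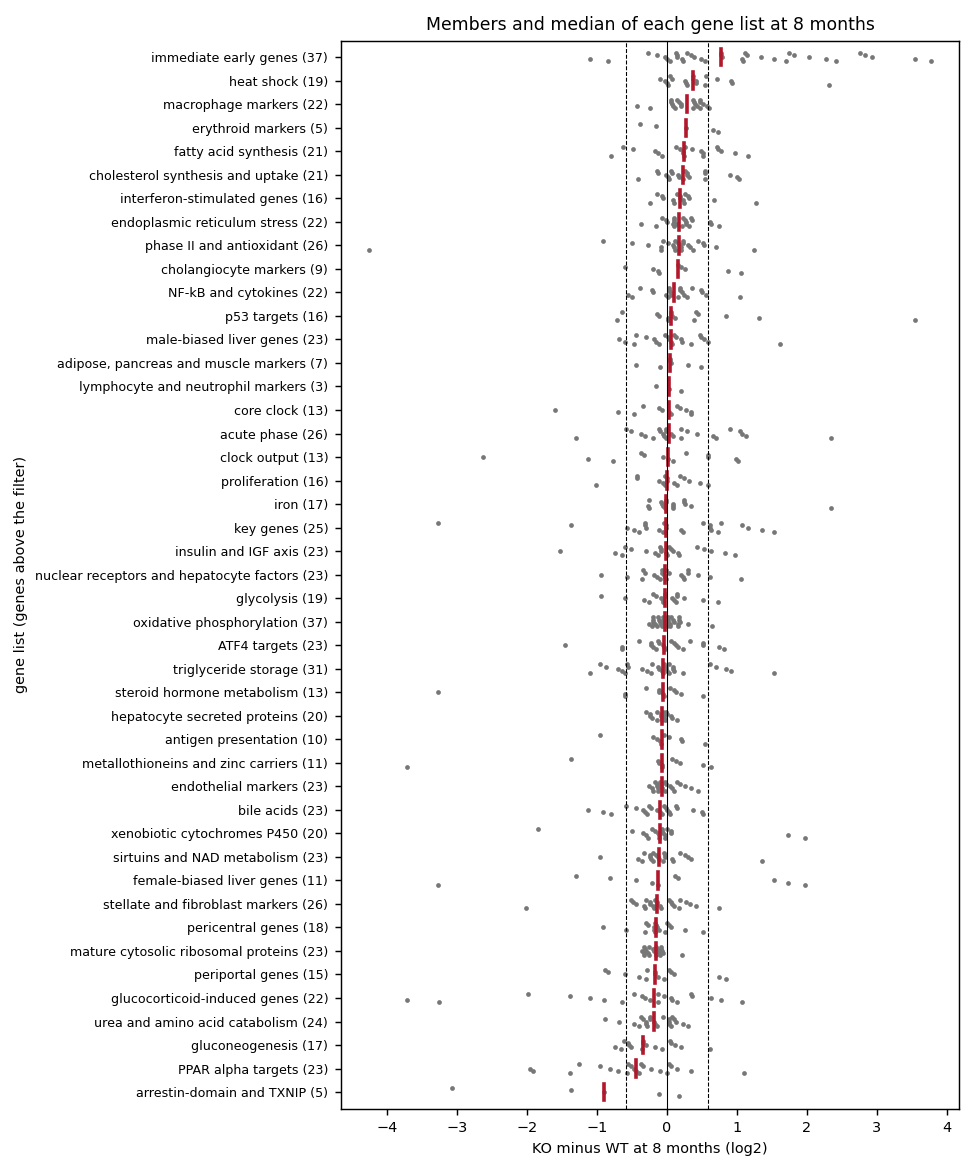
KO minus WT at 8 months (horizontal axis, log2) for every member above the filter of each of the 45 gene lists (vertical axis, number of genes in parentheses), with the list median as a red bar and dashed lines at 1.5-fold. Immediate early genes have the highest median, 0.78, and the arrestin-domain and TXNIP genes the lowest, -0.89.

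The 2 months arrays are other pools of the same genotypes and share no array with those at 8 months. Of the 519 genes, 340 (2.84% of all genes) also passed 1.5-fold with the same sign at 2 months, 213 (1.78%) higher and 127 (1.06%) lower. That was so for 27 of the 30 highest and lowest genes, the exceptions being Cyp17a1, Phf11c and Setdb2. In the 2 months pair, 476 genes (3.98%) passed on the higher side and 286 (2.39%) on the lower. Another 178 of the 519 were within 1.5-fold at 2 months, 75 of them higher and 103 lower at 8 months. Of these, 166 had the same sign at 2 months and 35 differed by under 0.2 there. In 101 of the 178 the WT values of both ages lay further apart than the KO values, against 44.6% of all genes. With 1 array per group the difference between ages was not tested.

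Some genes that were lower at 8 months alone were high in the array of WT mice at that age. Phf11c, a member of a plant homeodomain finger family, read 4.89 and 4.68 at 2 months and 5.96 and 3.95 at 8 months. Its neighbour Setdb2, a histone methyltransferase, read 6.06 and 5.55, then 6.88 and 5.22. The nucleolar chaperone Npm1 turned from 0.90 to -0.35, as WT went from 6.33 to 7.06 and KO from 7.23 to 6.72. The KO minus WT difference was 2.96 at 2 months and 1.36 at 8 months for Nnmt, 2.79 and 0.98 for the splicing factor Cwc22, and 2.33 and 0.59 for Fam171b. These genes passed 1.5-fold on the higher side at both ages, with the smaller difference at 8 months. For Nnmt the WT value was 4.43 at 2 months and 5.80 at 8 months, and the KO value 7.38 and 7.15.

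In the other direction, the acyl-CoA thioesterase Acot9 stood at 1.31 at 8 months and at 0.17 at 2 months, with WT at 4.95 and 4.17 and KO at 5.12 and 5.47. The actin-binding protein Tagln2 read 4.76 and 4.30 at 2 months and 3.98 and 4.71 at 8 months. Tes, a focal adhesion protein, was at -2.02 at 2 months and -0.54 at 8 months, and the array of WT mice at 2 months, at 5.76, stood apart from the other 3 at 3.47 to 4.02. The macrophage growth factor Il34 went from -1.02 to 0.08 and the secreted protease Htra1 from -1.14 to -0.09.

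**Figure D5:**
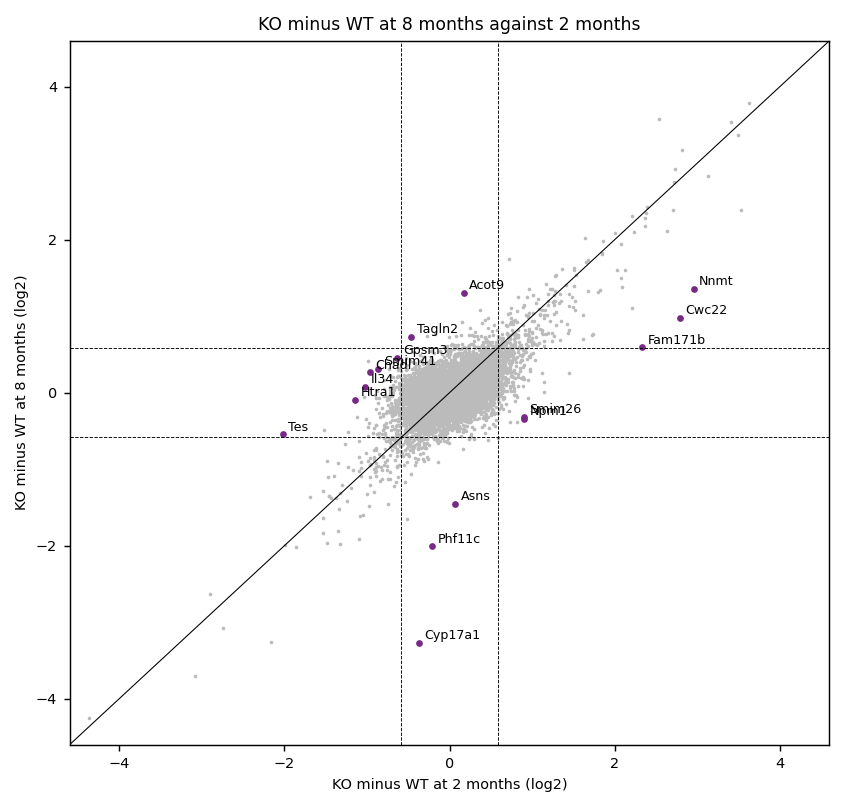
KO minus WT at 8 months (vertical axis, log2) against KO minus WT at 2 months (horizontal axis, log2), 1 point per gene, with dashed lines at 1.5-fold and a solid line of equality. Named purple points are the 8 genes with the largest and the 8 with the smallest 8 months minus 2 months difference, including Cyp17a1 at -3.27 against -0.37 and Tes at -0.54 against -2.02.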

How the data were processed

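Liver RNA was measured on 4 Affymetrix Mouse Gene 1.0 ST arrays, 1 for each of 2 genotypes at 2 and 8 months, each holding RNA of 3 pairs of mice per the series' design text. Affymetrix Expression Console 1.0v and RMA were used, per the submitters' processing notes. RMA subtracts background, equalizes the distributions of the arrays and summarises probes, which compresses dim differences and hides changes in total RNA. The log base of the values the authors deposited is not stated, and they are taken as log2, the scale RMA gives. Medians of the arrays ran from 3.52 to 3.58. An array has no read depth, and the number of arrays limits the precision.

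The table holds 35556 probe sets. Those to which the platform annotation gives 1 symbol (21789) were averaged per gene, giving 19938 genes; 1621 with several symbols and 12146 unlisted there were not assigned to genes. Names were checked against RefSeq GRCm38.p6, where 91 found no match. Genes whose mean over 4 arrays exceeded the 40th percentile (3.34) were kept. KO minus WT was taken per gene at each age, and genes at least 1.5-fold apart were counted with no test. Each list is described by its counts and median.

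The members, lists and rules were chosen with earlier results of these data known. Named genes are Sirt6, the 15 highest and 15 lowest at 8 months, the 8 highest and 8 lowest by the 8 months minus 2 months difference, a list of key genes, and the 4 highest and 4 lowest of each list. Other members named (such as Tat, Per2, Igf1, Saa1, Col1a1 or Sirt1) were chosen after their values were seen. Predicted genes and small RNAs were counted and not named, 31 of the 519. Alternatives were 2 other filters, median centring, repeated quantile normalization, cyclic loess and the brightest probe set per gene. Python 3.11.15, pandas 2.3.3, R 4.3.3 and limma 3.58.1 (scaling alternatives only) were used. Counting was tested on simulated data.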

Additional observations from a re-analysis of the deposited data

Results flagged for a closer look

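Adcy4, an adenylate cyclase, passed 1.5-fold in opposite directions at the 2 ages, as no other gene did, at -0.60 at 8 months and 0.59 at 2 months. It read 4.32 in WT and 4.91 in KO at 2 months, then 4.89 and 4.29 at 8 months. After median centring the 8 months difference misses 1.5-fold. The difference between the ages was not tested, since each group is 1 array.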

How the results depend on the processing

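Counts were recomputed under 6 alternatives. Genes at least 1.5-fold higher numbered 293 to 310 against 288, genes lower 203 to 250 against 231, and genes past 1.5-fold the same way at both ages 339 to 354 against 340. Of the 45 lists, 9 had a median at least 0.2 from 0, and 7 to 10 did under the alternatives. All 30 of the highest and lowest genes stayed past 1.5-fold under each alternative. The 2 other filters and the choice of probe set leave the values of these genes unchanged. Median centring shifts every gene by 0.02, and the smallest of the 30 differences was -1.64. Only repeated quantile normalization and cyclic loess could have moved these genes unevenly. Of the 352 named genes, cyclic loess took 9 below 1.5-fold, median centring 7, repeated quantile normalization 5 and the brightest probe set 1 (Pdia4, at 0.20), and median centring took Folr2 above it. Without a filter on low values the median of the arrestin-domain and TXNIP list was -0.61 and that of the erythroid markers -0.01. No named gene past 1.5-fold reversed its sign. Of the list medians at least 0.2 from 0, only that of the erythroid markers changed sign, from 0.28 to -0.01 without the filter. No paired analysis was possible because the labels give no replicate numbers and the 8 months difference rests on 1 array per genotype, so no array could be left out either. A genotype effect over both ages, with age as a block, can be fitted with 1 residual degree of freedom; it is another quantity than the 8 months difference and was not fitted here. Differences of dim genes are limited by RMA's compression near the background.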

Other observations

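A run of X-linked neighbours was higher at both ages. Armcx3, an armadillo-repeat protein of the mitochondrial outer membrane, read 5.71 and 7.04 at 8 months, a difference of 1.33. Bhlhb9 differed by 0.88 and the elongation factor-like genes Tceal8, Tceal9 and Tceal1 by 1.29, 0.61 and 1.26. At 2 months these 5 genes differed by 1.28, 0.69, 1.34, 0.29 and 0.83. They follow each other among genes above the filter in RefSeq order.

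Other genes at least 1.5-fold apart also lay side by side. The complement genes C6 and C7 and their neighbour Card6 were lower, at -0.68, -1.01 and -0.61. Nnmt and Zbtb16 are neighbours that differed in opposite directions, at 1.36 and -1.99, and so did the imprinted genes Meg3 at 1.08 and Rtl1 at -0.60, where Rtl1 misses 1.5-fold after median centring. Of 518 genes past 1.5-fold with a place in RefSeq, 78 (15.1%) had a neighbour past 1.5-fold, against 8.07% of the other genes. Of the 43 neighbouring pairs 30 had the same direction. Paralogs in 1 cluster, such as Cyp4a10 and Cyp4a14, are among them.

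Probe sets with several symbols or none listed were not used above. Of 6041 of these over the cutoff, 402 were at least 1.5-fold higher and 466 lower at 8 months, 14.4% in all, against 4.34% of genes. The shares are not like for like, since the first counts single probe sets and the second counts genes averaged over theirs. What the unlisted probe sets measure is not known here, so the larger share cannot be read as more genes that differ.

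Apoa4, a lipid-binding apolipoprotein, read 10.92 and 9.83 at 8 months and 10.77 and 9.88 at 2 months. It was looked up after other values had been seen.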
